A study of Ovis aries with 19 samples.

Results

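The insulin-like growth factor (IGF) axis was followed through 10 transcripts: the ligands IGF1 and IGF2, the growth hormone receptor GHR, the acid-labile subunit IGFALS, and the binding proteins IGFBP1 to IGFBP6. They were chosen by gene name, and all 10 of 10 were found among the 28524 gene names of the deposited table. RNA came from 10 female sheep, 5 treated, meaning exposed to testosterone before birth (prenatal T-treatment in the labels), and 5 control. Liver was sequenced from 5 treated sheep (48, 63, 185, 233 and 255) and 4 control sheep (98, 131, 179 and 201), and muscle from the same 5 treated sheep and from 5 control sheep (those 4 and sheep 132). The sheep number ties both tissues of an animal. The sources used here do not give the breed, the age at sampling, the testosterone dose or which muscle was taken, and no group carries a transgene or other allele by its labels.

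Growth hormone from the pituitary acts on GHR, and in liver this receptor drives transcription of IGF1 and IGFALS. Most circulating IGF1 is carried in a complex of IGF, IGFBP3 or IGFBP5, and the product of IGFALS, which holds it in the blood. IGFBP1 and IGFBP2 form smaller complexes with IGFs, and hepatic IGFBP1 is repressed by insulin and induced in fasting. IGFBP4 and IGFBP5 act mainly near the cells that make them, and IGFBP6 binds IGF2 in preference to IGF1. Skeletal muscle makes its own IGF1 and IGF2, which act locally on muscle cells.

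Values are normalized read counts, in which each library's reads per gene were divided by 1 factor, set separately for liver and for muscle. They compare libraries of 1 tissue for 1 gene and do not compare genes, since transcript length is not taken into account. Depth was 10236610 to 16046301 reads for a liver library and 8455563 to 14331578 reads for a muscle library. The tissue labels fitted their defining genes: no liver had less than 112956 of ALB (albumin) and no muscle more than 16.2, while no muscle had less than 154279 of ACTA1 (skeletal actin) and no liver more than 9.12. The number of genes with a read was lower in treated livers (16852 to 17911) than in control livers (17930 to 20704), and higher in treated muscles (17180 to 18029) than in control muscles (16586 to 17035). Median depth differed in the same directions, with overlapping ranges. It was 10996917 reads in treated and 13066488 in control livers, and 12844079 in treated and 10239979 in control muscles. The part of depth and of the number of genes with a read in the results below was not tested. In whole tissue, fewer cells of a type and less RNA per cell cannot be told apart.

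No gene of the IGF axis passed the test of treated against control in either tissue. The test was limma on log2(value + 1) with Benjamini-Hochberg adjustment over all genes with a mean of at least 10, and the threshold was an adjusted p of 0.05. In liver 0 of 10 members were called, where 0.00733% of the 13640 genes tested were, and in muscle 0 of the 8 members that reached that mean, where 0.00771% of 12966 genes were. By edgeR and by DESeq2 0 members were called as well, where DESeq2 called 32 genes in liver and 252 in muscle. At an unadjusted p under 0.05, limma gave 1 of 10 members in liver, beside 3.99% of all genes, and 1 of 8 in muscle, beside 14.4%. The member in liver was IGFALS and that in muscle was IGFBP5, both lower in treated sheep. The ranges of treated and control libraries overlapped for every member in both tissues, while they did not overlap for 1.54% of genes tested in liver and 3.29% in muscle. Limma log2 fold changes below are differences between group means of log2(value + 1). They can therefore differ from the ratio of the printed means.

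Neither ligand passed the test in liver, and for IGF1 the group means nearly coincided. IGF1, the main growth factor under growth hormone control, was 4145, 2686, 4683, 3653 and 5643 in treated livers (sheep 48, 63, 185, 233 and 255), against 3988, 5566, 6309.9 and 1212 in control livers (sheep 98, 131, 179 and 201). The 5 treated livers lay inside the control range, which was set by control 201 at the bottom and control 179 at the top. Its mean was 4162 ± 1107 (SD, n = 5) in treated and 4269 ± 2256 (SD, n = 4) in control livers, and the log2 fold change was 0.16, with a 95% interval of -0.79 to 1.11. By edgeR the log2 fold change was -0.052, and without control 201 the limma value was -0.36, so its sign was not settled. IGF2, a growth factor best known from fetal life, was 461, 236, 1211, 948 and 778 in treated livers, against 1957, 539, 568 and 916 in control livers. Control 98 stood highest and treated 63 lowest, and the log2 fold change was -0.46 (95% interval -1.53 to 0.62). Without control 98 it was -0.061.

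In muscle both ligands had nearly the same mean in treated and control sheep. IGF1 was 123, 134, 189, 256 and 159 in treated muscles (sheep 48, 63, 185, 233 and 255), against 126, 101, 239.8, 257 and 134 in control muscles (sheep 98, 131, 132, 179 and 201). Its means were 172 ± 53.6 (SD, n = 5) in treated and 171 ± 71.4 (SD, n = 5) in control muscles, with a log2 fold change of 0.054 and a 95% interval of -0.54 to 0.64. IGF2 was 37.5, 106, 68.3, 80.9 and 39.8 in treated muscles, against 90.3, 50.9, 46.2, 77.8 and 67.0 in control muscles, with treated sheep at both ends. For IGF2 the means were 66.5 ± 28.8 (SD, n = 5) in treated and 66.4 ± 18.4 (SD, n = 5) in control muscles, and the interval of the log2 fold change ran from -0.70 to 0.57. With 5 sheep a group, changes within these intervals were not excluded, and the intervals are not limits of what could be detected.

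GHR, through which growth hormone acts, was 12604, 6435, 6189.9, 9566 and 10269 in treated livers, against 2967, 8867, 12037 and 4340.4 in control livers. Controls 98 and 201 lay below every treated liver, and the other controls lay among the treated ones. The mean was 9013 ± 2711 (SD, n = 5) in treated and 7053 ± 4171 (SD, n = 4) in control livers. The log2 fold change was 0.51 ± 0.40 (SE), with a limma adjusted p of 0.999. It was 0.17 without control 98 and 0.84 without control 179 (limma unadjusted p = 0.0479, adjusted p = 0.570). In muscle GHR was 3708, 3727, 2078, 2961 and 4624 in treated sheep, against 3933, 3919, 3210.4, 3669.8 and 4427 in control sheep. Treated 185 was the lowest and treated 255 the highest muscle of all 10. The control muscles were close together, with a coefficient of variation of 11.6%, against 27.9% in treated muscles, and the log2 fold change was -0.21 (95% interval -0.61 to 0.20).

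IGFALS had the largest log2 fold change in absolute value among the members in liver. It was 152, 70.6, 213, 149 and 111 in treated livers (sheep 48, 63, 185, 233 and 255), against 422, 373, 119 and 239 in control livers (sheep 98, 131, 179 and 201). Controls 98, 131 and 201 stood above every treated liver, while control 179 lay inside the treated range. The mean was 139 ± 53.1 (SD, n = 5) in treated and 288 ± 137 (SD, n = 4) in control livers, and 5 of 5 treated livers were below the control mean. The log2 fold change was -0.98 ± 0.41 (SE), with an unadjusted p of 0.0323 and an adjusted p of 0.999 by limma. The unadjusted p was 0.0174 by edgeR and 0.0110 by DESeq2, and both adjusted values missed the threshold, at 0.922 and 0.544. Without control 179 the log2 fold change was -1.36 and the limma unadjusted p 0.00279, still with an adjusted p of 0.485. The unadjusted p was above 0.05, at 0.0508 to 0.108, when control 98, 131 or 201 or treated 63 or 255 was left out. The 7 measured hepatocyte markers, led by ALB, summed to between 327011 and 1473535 in treated livers and between 501941 and 1029670 in control livers, so the groups overlapped in that sum. Of these markers 4 of 7 had a log2 fold change above 0 and 0 had an unadjusted p under 0.05. Lists of 2 other cell types held several markers with an unadjusted p under 0.05 in liver. The 6 adipocyte markers summed to between 102 and 302 in treated and between 219.8 and 519 in control livers, with 3 of 4 tested lower at an unadjusted p under 0.05 (3.99% of all liver genes), and the 7 markers of T and NK cells summed to between 286 and 535 in treated and between 201 and 304 in control livers, with 2 of 7 higher. No gene of these lists was called, none was at 0 in all livers, and their part in the IGFALS values was not tested.

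IGFALS was low in muscle, where its mean was 50.9 ± 27.8 (SD, n = 5) in treated and 77.0 ± 44.5 (SD, n = 5) in control sheep. Single muscles read 95.4, 28.3, 58.2, 28.1 and 44.7 in treated sheep, against 126, 37.9, 91.3, 23.2 and 107 in control sheep. Control 179 was the lowest control for this gene in liver and in muscle, and control 98 the highest in both. The log2 fold change of -0.48 in muscle had a 95% interval of -1.48 to 0.51.

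**Figure D1:**
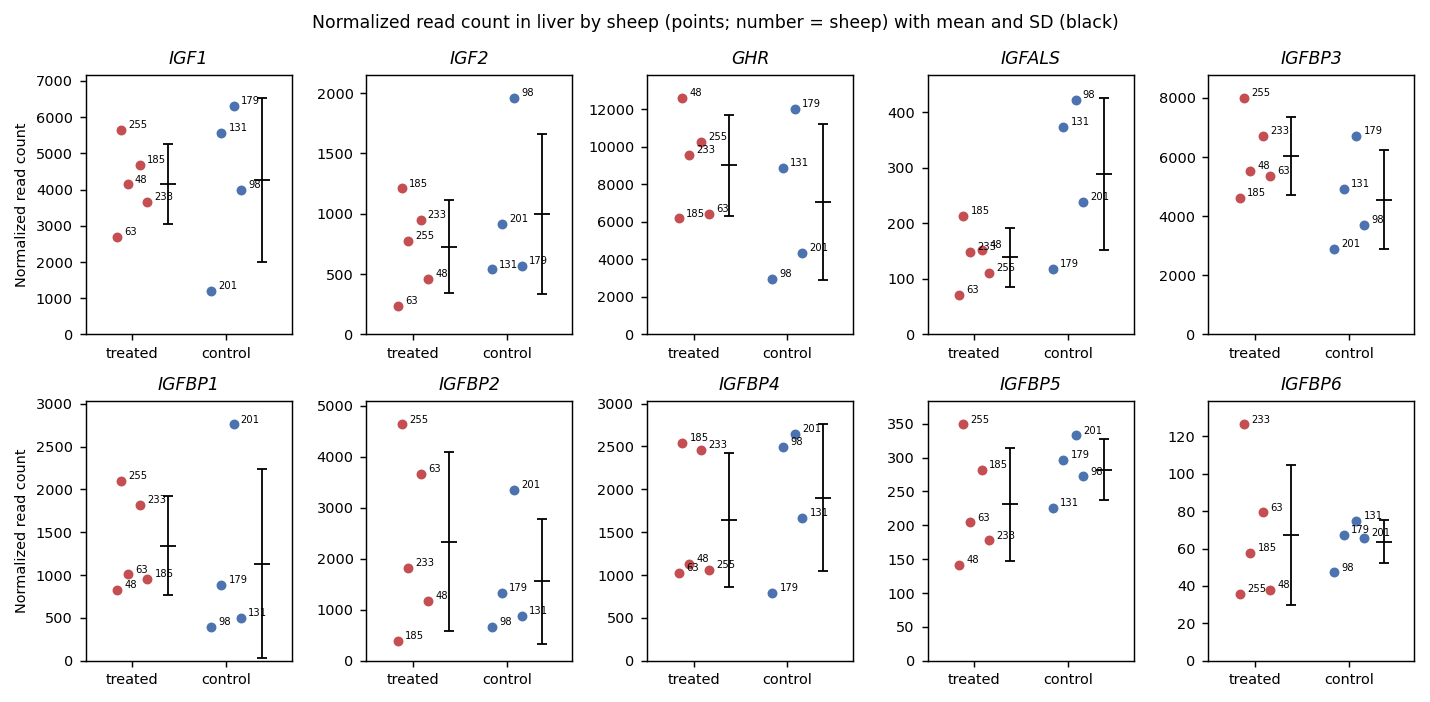
Normalized read count (vertical axes, from 0) of the 10 genes in each liver, treated left and control right, with 1 point per sheep, its number beside it, and the group mean with SD in black. IGFALS is lower in 5 of 5 treated livers than the control mean of 288, with control 179 at 119, and control 201 is lowest for IGF1 (1212) and highest for IGFBP1 (2759).

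IGFBP3, the main partner of IGFs in the circulating complex, was 5539, 5357, 4619, 6702 and 7989.9 in treated livers, against 3717, 4915, 6723 and 2897 in control livers. All 5 of 5 treated livers were above the control mean of 4563, but control 179 was above 4 of them. The log2 fold change was 0.45 ± 0.29 (SE), with a limma unadjusted p of 0.141 and an adjusted p of 0.999. Without control 179 it was 0.66, with a limma unadjusted p of 0.0308 and an adjusted p of 0.570. Without control 201 it was 0.25 (limma unadjusted p = 0.393). In liver, then, IGFALS and IGFBP3 of the same complex had fold changes of opposite sign, of which neither passed the test. In muscle IGFBP3 was 300.3, 202, 183, 153 and 130.1 in treated sheep, against 287, 110.4, 259.6, 275 and 194 in control sheep. Treated 48 was the highest and control 131 the lowest of these muscles. IGFBP3 there had a mean of 194 ± 65.6 (SD, n = 5) in treated and 225 ± 73.5 (SD, n = 5) in control sheep (95% interval of the log2 fold change -0.78 to 0.39).

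The insulin- and fasting-responsive binding proteins varied widely between sheep of a group, and neither passed the test. IGFBP1 was 825, 1007, 954, 1819 and 2103 in treated livers, against 395, 498, 888 and 2759 in control livers. Control 201 was the highest liver of all 9, and the other 3 controls were at or below 888. The mean was 1342 ± 578 (SD, n = 5) in treated and 1135 ± 1103 (SD, n = 4) in control livers, with a log2 fold change of 0.58 and a 95% interval of -0.53 to 1.69. Without control 201 the control mean was 594, the log2 fold change 1.16 and the limma unadjusted p 0.0118, with an adjusted p of 0.99998. Without control 98 the log2 fold change was 0.22 (limma unadjusted p = 0.669).

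IGFBP2 was 1169.8, 3655, 396, 1826 and 4631 in treated livers, against 667, 880.4, 1324 and 3357 in control livers. Treated 255 was the highest and treated 185 the lowest of the 9 livers. The residual SD of IGFBP2 within groups was 1.26 on the log2 scale, where the median gene had 0.519, and 96.5% of the genes tested in liver had a residual SD as small or smaller. The log2 fold change of 0.42 therefore had a wide 95% interval, -1.03 to 1.87. Without control 201 the control mean of IGFBP2 was 957, in place of 1557, beside a treated mean of 2336. Over the fits without 1 library, the log2 fold change of IGFBP2 ranged from 0.061 to 0.95.

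Both genes were nearly silent in muscle and were not tested there. IGFBP1 had 2 reads in the 5 treated muscles, or 0.0329 RPM (reads scaled to the same library total) with an exact 95% Poisson interval of 0.00398 to 0.119 RPM, and 0 in the 5 control muscles, which allows up to 0.0563 RPM at 3 reads over the group. These limits cover counting error only. IGFBP2 lay between 0.727 and 4.85 normalized counts in treated muscles and between 0 and 4.64 in control muscles.

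IGFBP5, a binding protein of muscle and connective tissue, was the other member with an unadjusted p under 0.05, in muscle. It was 2509, 4398, 3804, 3345 and 4054 in treated muscles (sheep 48, 63, 185, 233 and 255), against 7605, 13403, 4126, 6247 and 3067 in control muscles (sheep 98, 131, 132, 179 and 201). Controls 98, 131 and 179 stood above every treated muscle, and controls 132 and 201 lay inside the treated range. The mean was 3622 ± 731 (SD, n = 5) in treated and 6890 ± 4050 (SD, n = 5) in control muscles, with control 131 at the top of a wide control group, and 5 of 5 treated muscles were below the control mean. The log2 fold change was -0.76 ± 0.32 (SE), with an unadjusted p of 0.0318 and an adjusted p of 0.307 by limma. By edgeR the adjusted p was 0.234 and by DESeq2 0.0955. Without control 131 the log2 fold change was -0.48 (limma unadjusted p = 0.0813), and without control 201 it was -1.01 (0.00381), with adjusted p-values of 0.448 and 0.235. The unadjusted p was also above 0.05 without control 98 or 179 or treated 48 or 233, at 0.0526 to 0.0796.

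Markers of the cell types that muscle holds were read beside IGFBP5. The 9 fibroblast markers summed to between 71897 and 130092 in treated and between 98160 and 136093 in control muscles, and 0 of 9 had an unadjusted p under 0.05. The 6 adipocyte markers summed to between 1103 and 2406 in treated and between 1328 and 2813 in control muscles, and 3 of the 5 that were tested were lower at an unadjusted p under 0.05, which 14.4% of all muscle genes had. For satellite cells, the muscle stem cells, the 4 markers summed to between 169.95 and 413 in treated and between 80.7 and 180 in control muscles, with 3 of 3 tested higher at an unadjusted p under 0.05. In the muscle fibre list 0 of 7 had a log2 fold change above 0, and 0 passed at that level. The sums of this list were 877335 to 1735337 in treated and 1710936 to 1977497 in control muscles. The 7 markers of T and NK cells summed to between 159 and 273 in treated and between 124 and 187 in control muscles, with 6 of 6 tested above 0 and 1 (LCK) higher at that level, its ranges apart. The 6 measured endothelial markers summed to between 2058 and 3751 in treated and between 2747 and 4200.1 in control muscles, with 0 of 5 tested above 0 and 1 (TEK) lower at that level. No list had a gene past the adjusted threshold, and the part of these cell types in the IGFBP5 values was not tested.

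In liver IGFBP5 was at 142, 204, 281, 178 and 349 in treated sheep, against 272, 226, 297 and 333 in control sheep. Treated 48, 63 and 233 lay below every control, and treated 255 above every control. The log2 fold change was -0.35 with a 95% interval of -0.97 to 0.27, the same sign as in muscle and likewise short of the threshold.

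**Figure D2:**
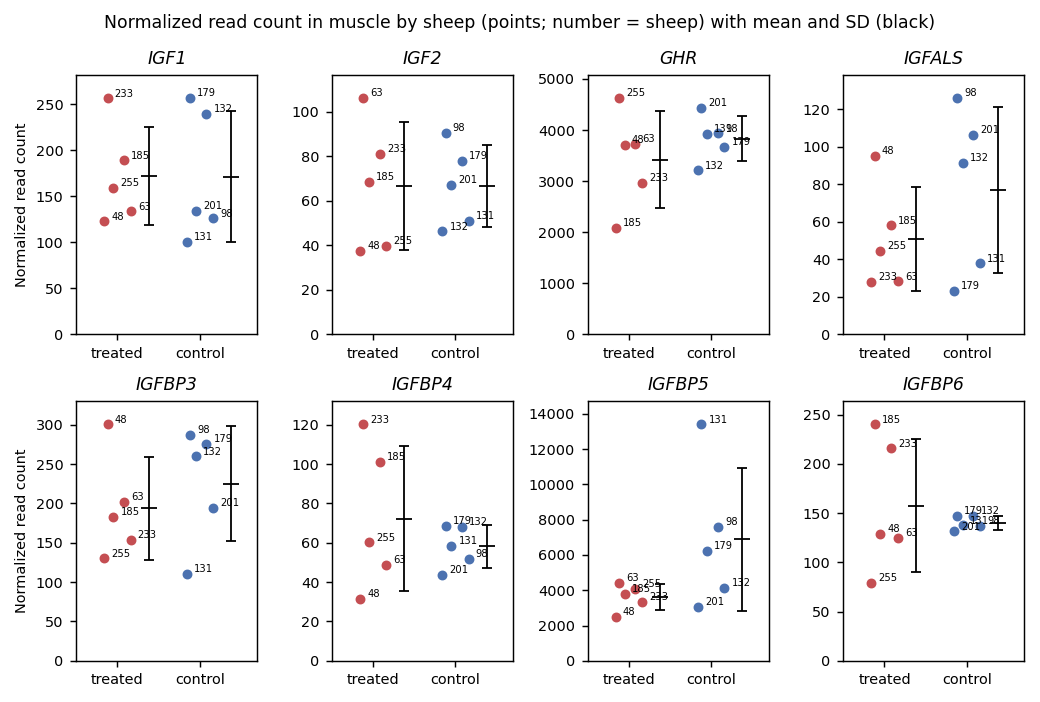
Normalized read count (vertical axes, from 0) of the 8 genes tested in muscle, treated left and control right, with 1 point per sheep, its number beside it, and the group mean with SD in black. IGFBP5 spans 2509 to 4398 in treated and 3067 to 13403 in control muscles, and IGFBP6 is tightly grouped in control muscles only.

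IGFBP4, an inhibitor of IGF action that is cleaved by the protease PAPPA, had high and low livers in each group. It was 1132, 1020.3, 2542, 2461 and 1064 in treated livers, against 2494, 1662, 789 and 2649.9 in control livers. Treated 185 and 233 were near controls 98 and 201, and treated 48, 63 and 255 were nearer control 179. In muscle IGFBP4 was 31.5, 48.6, 101, 120.1 and 60.2 in treated sheep, against 51.6, 58.5, 68.2, 68.5 and 43.7 in control sheep, and the treated values spread beyond the control values on both sides. Its log2 fold change was -0.19 in liver (95% interval -1.09 to 0.71) and 0.17 in muscle (-0.51 to 0.85), where the means were 72.3 ± 37.0 (SD, n = 5) in treated and 58.1 ± 10.7 (SD, n = 5) in control sheep.

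IGFBP6 was 129, 125, 239.9, 216 and 78.6 in treated muscles, against 137, 137, 147, 147 and 131 in control muscles. Treated 185 and 233 lay above every control and the other 3 treated muscles below every control. The control muscles had a coefficient of variation of 5.08%, against 42.9% in treated muscles, and no test of this difference in spread was run. The means were 158 ± 67.6 (SD, n = 5) in treated and 140 ± 7.12 (SD, n = 5) in control muscles. The log2 fold change was 0.057 (95% interval -0.48 to 0.60). In liver IGFBP6 was 37.7, 79.3, 57.7, 126 and 35.8 in treated sheep, against 47.2, 74.6, 67.2 and 65.7 in control sheep. The treated livers again lay on both sides of the control range, with coefficients of variation of 55.5% in treated and 18.3% in control livers, and the log2 fold change was -0.061 (95% interval -0.89 to 0.76).

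**Figure D3:**
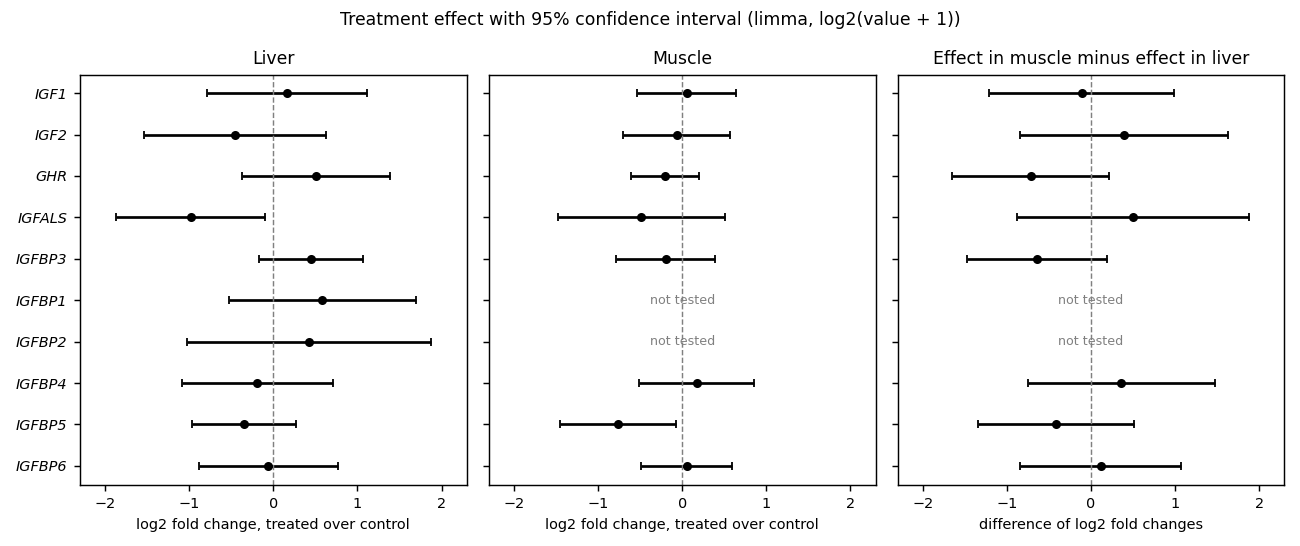
Log2 fold change of treated over control (horizontal axis, points) with 95% confidence interval (bars) for each gene in liver and in muscle, and the effect in muscle minus the effect in liver. The intervals exclude 0 for IGFALS in liver (-1.87 to -0.098) and IGFBP5 in muscle (-1.45 to -0.077), before any adjustment over genes.

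Whether the treatment effect differed between the tissues was tested for the 8 members that reached the mean in both, in a fit of all 19 libraries. This fit treated the libraries as independent, so its intervals and p-values leave out the pairing of liver and muscle by sheep. At an adjusted p under 0.05 by limma 0 of 8 were called, beside 0.00855% of the 11697 genes tested. At an unadjusted p under 0.05 there were 0 of 8, beside 4.9% of all genes. EdgeR and DESeq2 called 0 members as well, where DESeq2 called 11 genes in all. The largest differences in absolute value, muscle effect minus liver effect, were those of GHR, -0.72 with a 95% interval of -1.65 to 0.22, and IGFBP3, -0.65 with an interval of -1.48 to 0.18. Both had a fold change above 0 in liver and below 0 in muscle. Without control liver 179 the difference was -1.05 for GHR (limma unadjusted p = 0.0191) and -0.86 for IGFBP3 (0.0413), with adjusted p-values of 0.287 and 0.325. For IGFBP3 it was -0.88 without control muscle 131 (limma unadjusted p = 0.0233, adjusted p = 0.996) and -0.82 without treated muscle 48 (0.0487, adjusted p = 0.981). Over all fits without 1 library the difference ranged from -1.05 to -0.37 for GHR and from -0.88 to -0.45 for IGFBP3. For IGFALS the difference was 0.50 (-0.88 to 1.88) and for IGFBP5 -0.42 (-1.35 to 0.51), so the effect was not shown to differ between tissues for either gene.

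The tissues themselves were set side by side in RPM, since the deposited scaling was done within a tissue. No test was made of this contrast. The ranges of all 9 livers lay above those of all 10 muscles for 6 members, below them for 1, and overlapped for 3. The share over all genes was not computed, so these counts are not a result about the members. IGF1 ran from 105 to 540.3 RPM in liver and from 7.99 to 23.4 RPM in muscle. IGF2 had 19.7 to 195 RPM in livers and 3.77 to 9.14 RPM in muscles. Within a sheep the liver value was 9.10 to 67.7 times the muscle value for IGF1 and 2.16 to 27.4 times for IGF2. Liver was likewise above muscle for IGFBP3, at 13.6 to 54.5 times, and for IGFBP4, at 10.3 to 61.1 times. IGFBP1 and IGFBP2, the other members of that set, had 39.4 to 240.1 and 35.4 to 340.04 RPM in liver and at most 0.459 RPM in any muscle.

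IGFBP5 was the exception, with 265 to 1063 RPM in muscle and 11.7 to 29.0 in liver, a muscle value 9.16 to 48.5 times the liver value of the same sheep. IGFBP6 was also higher in muscle in 9 of 9 sheep, by 1.51 to 4.65 times, although its ranges overlapped. IGFALS was higher in liver in 9 of 9 sheep, by 1.17 to 12.0 times, with overlapping ranges. GHR had 296 to 1044 RPM in liver and 204 to 437 RPM in muscle, and was higher in liver in 7 of 9 sheep, by 2.50 times at the median. Liver and muscle ranges thus did not overlap for 7 of the 10 genes, a count given without the share over all genes.

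**Figure D4:**
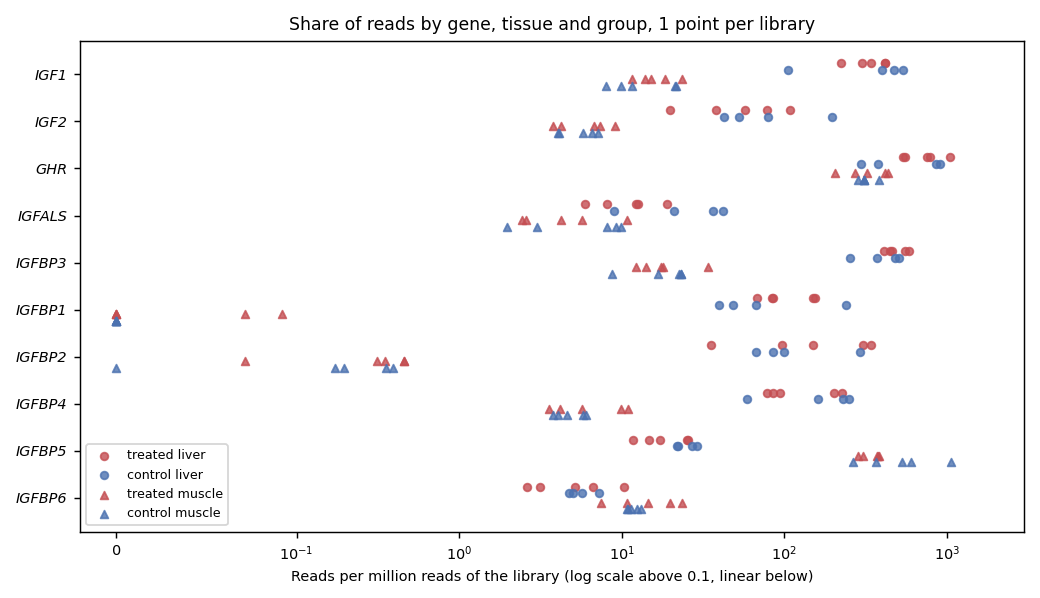
Library-scaled reads, RPM (horizontal axis, logarithmic above 0.1 and linear below) of each gene, with 1 point per library, circles for liver and triangles for muscle, treated red above control blue. IGFBP5 is the gene whose muscles, at 265 to 1063, all lie to the right of its livers, while IGFBP1 and IGFBP2 stay below 0.46 in every muscle.

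The highest and the lowest livers of single members came from both treatment groups. Control 201 had the lowest IGF1 and IGFBP3 and the highest IGFBP1 and IGFBP4 of the 9 livers, and its library also had the most genes with a read, 20704. Control 98 had the lowest GHR and IGFBP1 and the highest IGF2 and IGFALS. Treated 255 had the highest IGFBP2, IGFBP3 and IGFBP5. Each of the 9 livers but control 131 was the lowest or the highest for at least 1 member. This was not compared with other genes, so it is not a result about the members.

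Pairs among GHR, IGF1, IGFALS, IGFBP1 and IGFBP2 were correlated over the 9 livers, 10 pairs in all, on log2(value + 1) with two-sided exact permutation tests. After Benjamini-Hochberg adjustment over the 10 pairs 0 passed, and 1 had an unadjusted Pearson p under 0.05. That pair was IGFBP1 and IGFBP2, with r = 0.71 (exact permutation p = 0.0355, adjusted p = 0.337) and Spearman's rho = 0.75 (exact permutation p = 0.0255, adjusted p = 0.184). Sheep 201 and 98 were farthest from the median of IGFBP1, and without them r was 0.59 (exact permutation p = 0.158). With each group centred on its own mean r was 0.69. Livers high in IGFBP1 were in most cases high in IGFBP2, a relation that did not pass the adjustment.

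IGFALS and IGFBP2 ran in opposite directions, with r = -0.62 (exact permutation p = 0.0775, adjusted p = 0.337) and rho = -0.72 (exact permutation p = 0.0369, adjusted p = 0.184), and with r = -0.47 (exact permutation p = 0.292) without sheep 98 and 131. GHR and IGF1, receptor and target, gave r = 0.54 (exact permutation p = 0.131, adjusted p = 0.337) and rho = 0.55 (exact permutation p = 0.133, adjusted p = 0.332), and r = 0.49 (exact permutation p = 0.263) without sheep 98 and 201. For GHR and IGFALS r was -0.53 (exact permutation p = 0.144, adjusted p = 0.337), rho was -0.55 (exact permutation p = 0.133, adjusted p = 0.332), and r was 0.0027 without the same 2 sheep (exact permutation p = 0.996), so that relation rested on them. The other 6 pairs had r between -0.50 and 0.17.

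**Figure D5:**
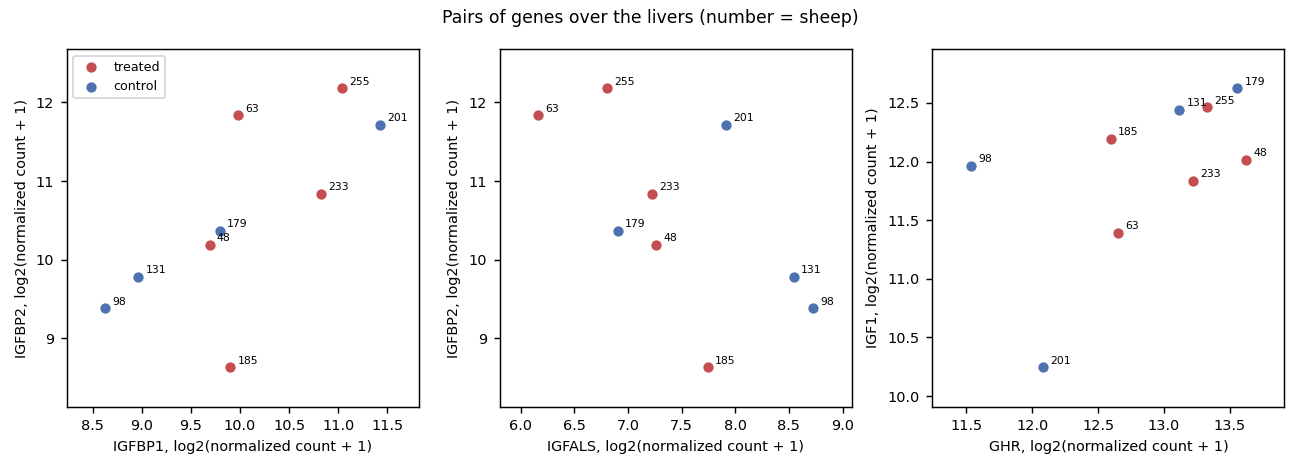
Log2(normalized count + 1) of IGFBP2 against IGFBP1, IGFBP2 against IGFALS, and IGF1 against GHR over the 9 livers (treated red, control blue, number = sheep). Pearson's r is 0.71, -0.62 and 0.54 over these points, and none of the pairs passed adjustment over the 10 pairs.

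The same gene was also compared between liver and muscle of the 9 sheep with both, for 8 members. After adjustment over the 8 genes 0 correlations passed, and 0 had an unadjusted p under 0.05. IGFALS had r = 0.59 (exact permutation p = 0.0991, adjusted p = 0.396) and rho = 0.65 (exact permutation p = 0.0666, adjusted p = 0.532), with r = 0.68 (exact permutation p = 0.0958) without sheep 98 and 131. IGFBP6 had r = 0.59 (exact permutation p = 0.0900, adjusted p = 0.396) and rho = 0.42 (exact permutation p = 0.270, adjusted p = 0.809), but r = -0.035 (exact permutation p = 0.936) without sheep 233 and 255, on which it rested. IGF1 in liver and IGF1 in muscle had r = 0.23 (exact permutation p = 0.569, adjusted p = 0.772) and rho = 0.20 (exact permutation p = 0.613, adjusted p = 0.809), and r = 0.024 (exact permutation p = 0.956) without sheep 201 and 63. The remaining 5 genes had r between -0.23 and 0.34.

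Genes that work with these members were counted from 5 lists, in which 0 genes were called by limma in either tissue. Of 7 receptors and receptor-bound proteins (IGF1R, IGF2R, INSR, IRS1, IRS2, GRB10, GRB14) 1 was higher and 0 lower in liver at an unadjusted p under 0.05, beside 3.99% of all genes. GRB14, an adaptor that inhibits the insulin receptor, averaged 959.7 ± 343 (SD, n = 5) in treated and 537 ± 218 (SD, n = 4) in control livers (log2 fold change 0.86, limma unadjusted p = 0.0228, adjusted p = 0.999). In muscle, with GRB14 set aside, 0 passed at that level, beside 14.4% of all genes. GRB14 averaged 15.0 ± 4.50 (SD, n = 5) in treated and 8.97 ± 4.64 (SD, n = 5) in control muscles. It reached the mean of 10 only through the treated muscles, so its test is not given and it is left out of the count.

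Of the growth hormone signalling list 9 of 12 genes were tested in each tissue. In liver GHRHR, the receptor of growth hormone-releasing hormone, reached the mean of 10 only through the control livers. Its fold change and p are therefore not given, and it is left out of the count. GHRHR was at 1.07 to 18.5 with a mean of 7.31 in 5 treated livers. In 4 control livers it was at 15.6 to 38.8 with a mean of 29.5. No remaining gene of the list had an unadjusted p under 0.05 in liver, where 3.99% of all genes had one. SOCS1 in muscle reached the mean of 10 only through the treated muscles, with means of 13.0 in treated and 7.52 in control muscles. It is likewise left out. Of the remaining genes in muscle 1 had an unadjusted p under 0.05, lower in treated sheep, beside 14.4% of all genes. These counts say nothing particular of the list. The gene in muscle was PTPN11, a phosphatase of receptor signalling, at 1316 ± 275 (SD, n = 5) in treated and 2059 ± 419 (SD, n = 5) in control muscles, with a log2 fold change of -0.65 and an adjusted p of 0.176 by limma. DESeq2 gave PTPN11 an adjusted p of 0.0441, past the threshold, as it did for 252 muscle genes in all. The ranges of treated and control sheep overlapped for GRB14, GHRHR and PTPN11 alike.

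The IGFBP proteases and their inhibitors had 0 of 7 tested genes with an unadjusted p under 0.05 in either tissue. Of all genes 3.99% had one in liver and 14.4% in muscle, so the count says nothing particular of the list. The smallest p belonged to ADAM12 in liver, a protease that can cleave IGFBP3 and IGFBP5, at 37.1 ± 42.5 (SD, n = 5) in treated and 63.2 ± 40.0 (SD, n = 4) in control livers (limma unadjusted p = 0.106, adjusted p = 0.999), and to ADAM9 in muscle, at 476 ± 21.3 (SD, n = 5) in treated and 561 ± 119.5 (SD, n = 5) in control muscles (0.169, adjusted p = 0.533). Of the IGFBP-related and IGF2 mRNA-binding proteins, 0 of 1 tested in liver and 0 of 2 in muscle had an unadjusted p under 0.05, beside the same shares of all genes. IGFBP7, related to the binding proteins but a weak binder of IGFs, averaged 867 ± 105 (SD, n = 5) in treated and 810 ± 152 (SD, n = 4) in control livers, and 371 ± 78.2 (SD, n = 5) in treated and 326 ± 94.6 (SD, n = 5) in control muscles.

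Among 10 transcription factors of the IGF and IGFBP genes, 0 had an unadjusted p under 0.05 in liver, beside 3.99% of all genes. FOXA2 had the smallest p there, 0.0583 by limma, at 187 ± 53.9 (SD, n = 5) in treated and 304 ± 128 (SD, n = 4) in control livers. In muscle 1 of 6 tested was lower at an unadjusted p under 0.05, a share near the 14.4% of all genes. This was FOXO1, a factor that insulin and IGF1 signalling keep out of the nucleus, at 739 ± 306 (SD, n = 5) in treated and 1133 ± 218 (SD, n = 5) in control muscles (log2 fold change -0.68, limma unadjusted p = 0.0122, adjusted p = 0.231).

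Across the 10 members the median log2 fold change in liver was 0.050, where that of all genes tested was 0.0032, and 5 of 10 were above 0. In muscle the median over 8 members was -0.13, where that of all genes was -0.013, and 3 of 8 were above 0. The median absolute log2 fold change of the members was 0.44 in liver and 0.18 in muscle, beside 0.22 and 0.19 over all genes. The members also varied more within groups than most genes did. In liver 8 of 10 members had a residual SD above the median of 0.519, all but IGFBP3 and IGFBP5, and in muscle 8 of 8 were above the median of 0.306, up to 0.896 for IGFALS.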

How the data were processed

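Total RNA of 9 livers and 10 muscles was made into TruSeq libraries, per the labels' protocols. Trimmomatic, STAR and featureCounts 1.6.1 are the tools named, per the submitters' processing notes. The sources used here give no genome build, annotation, strand setting or scaling software, so no coordinates are printed. The deposited signal values are reads of a gene divided by a factor of the library. In every library 100% of the values above 0 were whole multiples of 1 read within 0.01 read, and within each tissue the scaling matched median-of-ratios size factors. No sequences of the members were used here.

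Genes averaging 10 or more in a tissue were tested on log2(value + 1) with limma 3.58.1 (mean-variance trend) in R 4.3.3, with Benjamini-Hochberg adjustment over all genes. Fold changes on this scale understate changes of low genes. Recovered reads were tested with edgeR 4.0.16 and DESeq2 1.42.0. Procedures were tested on simulated data. Counting intervals are exact Poisson. Each replicate was a separate sheep, and the 36 pairs of libraries of a group all differed by more than sampling noise (chi-square per degree of freedom at least 21.0). Liver and muscle of a sheep are paired by its number: deviations from group means correlated at 0.103 to 0.349 within a sheep, against a median of -0.017 between sheep. The members and gene lists were chosen with earlier results of these data known. Every member is named, and from each gene list the genes with an unadjusted p under 0.05, or else the smallest p. STAT5B and H19, of the lists, had no entry by name. Alternatives were pseudocounts of 0.25 and 4, no filter or a mean of at least 50, other scalings, array weights, a joint fit of the tissues, a block for each sheep, and leaving out single libraries.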

Additional observations from a re-analysis of the deposited data

How the results depend on the processing

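With 9 livers and 10 muscles, members with wide spread between sheep had wide intervals. No member was called in liver, in muscle or for the difference between tissues under any alternative run, the replicate block by sheep included, which changed no call of a member; with the block 9 liver genes in all were called, as with 1 fit of all libraries without it (9), and 1 each in muscle and for the tissue difference. Over all genes, the liver count of 1 became 0 with a mean of at least 50, 32 with DESeq2 and 2 with array weights, and was 1 without each library in turn. The muscle count of 1 became 0 with a pseudocount of 0.25 or a mean of at least 50, 80 (79 higher, 1 lower) with RPM and 252 with DESeq2, and ranged from 0 to 4 without 1 library. The count of 1 for the tissue difference became 0 with a pseudocount of 4 or no filter, 11 with DESeq2 and 3 with array weights, and ranged from 0 to 2 without 1 library. Members with an unadjusted p under 0.05 numbered 0 to 3 in liver, 0 to 1 in muscle and 0 to 2 for the difference without 1 library; they were 0 in liver with 1 fit of all libraries, 0 in muscle with RPM and 1 for the difference with array weights. The cause of these changes was not tested.

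Scaling by RPM moved the median log2 fold change of all genes by -0.12 in liver, 0.20 in muscle and 0.32 for the difference, and fold changes under it are relative to that shift. Of 802 recomputed log2 fold changes of members and named genes, 762 kept their sign and side of the threshold, 39 turned sign and 1, PTPN11 in muscle by DESeq2, passed the threshold. By edgeR and DESeq2 the turned values were -0.052 and -0.037 for IGF1 and 0.059 and 0.079 for IGFBP6 in liver, 0.018 and 0.016 for IGF2 in muscle, and 0.081 and 0.043 for IGF1 between tissues. With RPM they were -0.010 for IGFBP7 in liver, 0.14 for IGF2 and 0.0079 for IGFBP3 in muscle, and 0.21 for IGF1 between tissues, and with array weights -0.039 for IGF1 in muscle. Without 1 library the log2 fold change ranged in liver from -0.36 to 0.43 for IGF1, -0.56 to 0.018 for IGFBP4 and -0.33 to 0.12 for IGFBP6; in muscle from -0.11 to 0.22 for IGF1, -0.26 to 0.11 for IGF2, -0.050 to 0.42 for IGFBP4 and -0.12 to 0.28 for IGFBP6; and between tissues from -0.38 to 0.42 for IGF1, -0.0037 to 0.63 for IGF2 and -0.066 to 0.38 for IGFBP6. The sign of IGFALS in liver (-1.36 to -0.75) and of IGFBP5 in muscle (-1.01 to -0.48) held without each library. No correlation passed its adjusted threshold under any alternative.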
